A study of Mus musculus with 3 samples.

Results

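Subcluster 2 is 1 of 9 groups into which the authors' clustering divided the T follicular helper (Tfh) cells of mouse spleen. Its members are the cells that the authors' deposited table of Tfh cells numbers 2, matched by barcode to the unique molecular identifier (UMI) counts of each library. There were 2180 members among 6389 Tfh cells in the library from mice with a Siglec-G B-cell knockout (BKO). In the wild-type (WT) library there were 257 members among 3727 Tfh cells in its first run and 269 among 3668 in its second. These are 2706 of the 13784 Tfh cells and of the 18693 Tfh and T follicular regulatory (Tfr) cells in all. The genes given as its markers are Mif, C1qbp, Npm1, Rflnb and Tesc.

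The study profiled follicular T cells by droplet-based single-cell RNA sequencing in mice whose B cells lack Siglec-G, an inhibitory receptor of B cells, and in WT mice. Mice of both genotypes were immunized with OVA-liposome, and viable Tfh and Tfr cells were sorted on day 14. The groups are BKO (1 sample, batch 1) and WT (2 samples, batch 1 and batch 2). The WT samples share their cells, since 5152 barcodes of WT run 1 also occur in WT run 2, and they were read as 2 runs of 1 library. No source used here gives the promoter that drives the deletion, the strain, the age or the number of mice pooled. Each genotype therefore has 1 library and no test between genotypes is possible. All intervals below are exact 95% intervals and cover counting error alone. The UMI total in the authors' table equalled that of the matched counts for 6241 of 8433 BKO Tfh and Tfr cells. It did so for 4023 of 5143 in WT run 1 and for 0 of 5117 in WT run 2. In WT run 2 the median ratio of table to matched counts was 0.66, so its labels go with other totals than those summed here. The reason was not tested. Siglecg had 0 UMIs in BKO members and 1.68 and 1.13 CPM (UMIs per 1e+06) in the members of WT runs 1 and 2. As the gene was deleted in B cells and the sorted cells are T cells, this does not check the genotype label.

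Tfh cells are CD4 T cells that enter B cell follicles under the control of the repressor Bcl6 and the chemokine receptor Cxcr5, and they help germinal centre B cells through CD40 ligand, IL-21 and IL-4. T cells that receive signals to grow raise ribosome production in the nucleolus, where ribosomal RNA is made and assembled. Mitochondrial chaperones, nucleotide synthesis and protein folding factors rise with it, in large part under the transcription factor Myc.

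Subcluster 2 held 34.1% of Tfh cells in BKO (33.0 to 35.3), against 6.90% (6.10 to 7.76) in WT run 1 and 7.33% (6.51 to 8.23) in WT run 2. Counted as distinct cells, BKO supplied 2180 of 2486 members, or 87.7%. A cluster that comes mostly from 1 library may be that library rather than a cell type, and here these cannot be told apart. Of 3387 WT barcodes that were Tfh cells in both runs, 246 were members in run 1, 231 in run 2 and 220 in both, so most WT members were placed alike in both runs. Of the WT members, 10 from run 1 were Tfr cells in run 2 and 6 from run 2 were Tfr cells in run 1. A barcode shared with a WT cell was found for 3 BKO members.

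Members were shallower and richer in ribosomal protein transcripts than the remaining Tfh cells of their own library. The median was 5412.5 UMIs per BKO member against 6645 in other BKO Tfh cells, 3853 against 4452 in WT run 1 and 5887 against 7395 in WT run 2, the lowest of the 9 subclusters each time. Ribosomal protein genes made up 23.7% of the UMIs of BKO members against 18.2% in other BKO Tfh cells, 22.3% against 16.2% in WT run 1 and 22.8% against 16.9% in WT run 2. In BKO this share was not particular to the members, since subclusters 4, 6 and 8 had 23.1%, 24.3% and 22.9%. In WT the nearest was subcluster 6, with 20.8% in run 1 and 21.6% in run 2. Malat1, a nuclear long noncoding RNA, was lower in the members, with 1.96% against 2.55% of UMIs in BKO, 1.59% against 2.29% in WT run 1 and 1.72% against 2.41% in WT run 2. A low Malat1 share was not particular to them, since subclusters 4, 6 and 8 of BKO had 1.98%, 2.03% and 0.424%. In WT subcluster 8 was lower still, with 0.685% in run 1 and 0.756% in run 2. Depth and ribosomal share thus move with membership in every library. With the other Tfh cells weighted to the UMIs of the members, a comparison added after seeing the data, 307 genes were lower in all 3 samples in place of 315 and 108 were higher in both WT runs in place of 106, by the rule of size given below. With cells thinned to 2500 UMIs these counts were 229 and 82, and the Mif log2 ratio was 0.38 in place of 0.39 in BKO and 0.84 in place of 1.14 in WT. The part of the ribosomal share was not tested.

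The label was checked against the markers, which are described here without a test because the authors built the clusters from these genes. Values are CPM, from UMIs summed over the members and over the other Tfh cells of the same library, and ratios are log2 of CPM with 0.5 added. Mif (ENSMUSG00000033307, chr10:75859353-75860240, minus strand), which encodes a secreted cytokine, stood at 366 against 279.9 CPM in BKO (log2 ratio 0.39), 499 against 222 CPM in WT run 1 (1.17) and 458 against 212 CPM in WT run 2 (1.11). The BKO ratio had an interval of 0.34 to 0.44, against 1.04 to 1.29 and 1.00 to 1.22 in WT runs 1 and 2, so Mif was above the other Tfh cells in all libraries and by less in BKO.

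C1qbp (ENSMUSG00000018446, chr11:70977836-70983026, minus strand), which encodes a mitochondrial matrix protein needed for mitochondrial translation, stood at 58.5 against 42.9 CPM in BKO (log2 ratio 0.44), 88.1 against 40.9 CPM in WT run 1 (1.10) and 81.9 against 38.9 CPM in WT run 2 (1.06). Npm1 (ENSMUSG00000057113, chr11:33152287-33163206, minus strand), which encodes the nucleolar chaperone nucleophosmin, stood at 697 against 525 CPM in BKO (log2 ratio 0.41), 949.6 against 498 CPM in WT run 1 (0.93) and 907 against 477 CPM in WT run 2 (0.93). Both followed Mif: the levels in BKO members lay below those in WT members, and the levels in other Tfh cells were somewhat higher in BKO. Tesc (ENSMUSG00000029359, chr5:118027743-118061878, plus strand), which encodes the calcium-binding protein tescalcin, stood at 163 against 112 CPM in BKO (log2 ratio 0.54), 164 against 95.4 CPM in WT run 1 (0.77) and 151 against 90.1 CPM in WT run 2 (0.74). Rflnb (ENSMUSG00000020846, chr11:76019194-76027782, minus strand), which encodes the actin regulator refilin B, stood at 229 against 154 CPM in BKO (log2 ratio 0.57), 138 against 142 CPM in WT run 1 (-0.04) and 142 against 144 CPM in WT run 2 (-0.02). Rflnb thus stood apart in BKO members and went against the label in WT, where its ratio turned to 0.10 with the scaling by trimmed mean of M-values described below.

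**Figure D1:**
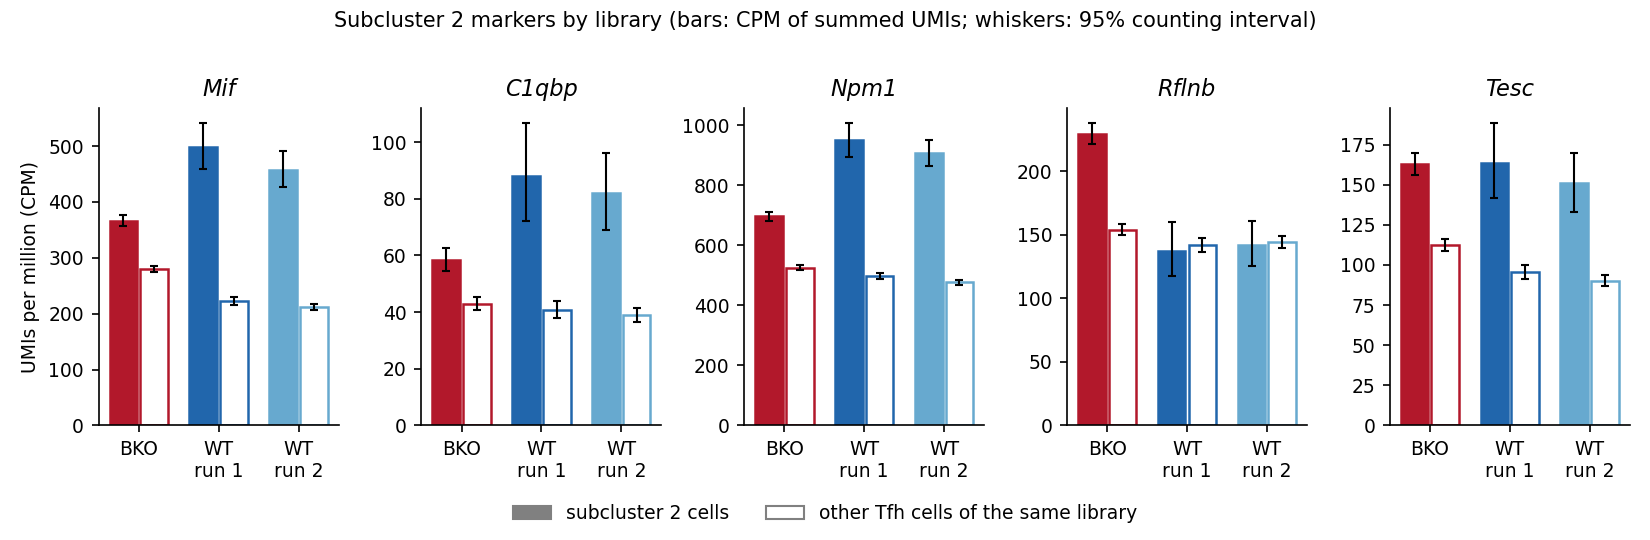
CPM of the 5 markers (vertical axes, each from 0) in subcluster 2 cells (filled bars) and other Tfh cells (open bars) of BKO, WT run 1 and WT run 2, with exact 95% counting intervals as whiskers. For Mif the filled bar stands at 366 against 279.9 CPM in BKO and at 499 against 222 CPM in WT run 1, and Rflnb shows a gap in BKO but not in the WT runs.

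None of the 5 markers reached in BKO the 1.5-fold difference used below as the rule of size, whereas Mif, C1qbp, Npm1 and Tesc reached it in both WT runs. Rflnb was higher in subcluster 0 than in the members, at 313, 326 and 321 CPM in BKO, WT run 1 and WT run 2. Tesc stood at 167, 168 and 158 CPM there, so that against subcluster 0 alone neither gene marks the members.

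The Mif difference was also seen per cell. With every cell thinned to 2500 UMIs, 51.2% of BKO members had a Mif UMI against 42.4% of other BKO Tfh cells, 48.9% against 36.7% in WT run 1 and 46.7% against 36.4% in WT run 2. Among Tfr cells treated alike the shares were 48.4%, 38.4% and 35.3%, at median depths of 7054.5, 5146 and 8407 UMIs before thinning, so in BKO a Mif UMI hardly sets the members apart from Tfr cells. Unthinned, the Mif shares were 75.05% against 71.9% in BKO, 61.5% against 54.5% in WT run 1 and 64.3% against 69.7% in WT run 2. For Rflnb the thinned shares were 37.9% against 27.7% in BKO, 26.5% against 24.95% in WT run 1 and 27.1% against 25.8% in WT run 2, with 9.78%, 8.99% and 9.81% of Tfr cells. Unthinned, the Rflnb shares were 55.3% against 44.2%, 37.4% against 35.1% and 43.9% against 44.5%. Thinning left out 26 of 2180 BKO members, 38 of 257 in WT run 1 and 40 of 269 in WT run 2. Of the other Tfh cells it left out 40 of 4209, 156 of 3470 and 16 of 3399. The WT run 2 members thus had a shallow tail, with a 10th percentile of 718.6 UMIs against 4921.8 in other Tfh cells.

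Across the 6434 genes whose mean reached 20 CPM, 0 were 1.5-fold or more higher in the members of all 3 samples (background 0%) and 315 were at least 1.5-fold lower (4.9%). In BKO 2 genes were higher (0.0311%) and 638 lower (9.92%), and in both WT runs 106 were higher (1.65%) and 587 lower (9.12%). Of the 106 genes higher in both WT runs 0 met the rule in BKO, but 101 had a BKO ratio above 0, and their median log2 ratio was 0.29 in BKO, 0.74 in WT run 1 and 0.73 in WT run 2. The median of all genes was -0.16 in BKO, -0.14 in WT run 1 and -0.13 in WT run 2, and that of the 89 ribosomal protein genes 0.39, 0.47 and 0.43.

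Scaling by trimmed mean of M-values (TMM) moved every ratio up by 0.20 in BKO and by 0.13 in each WT run, so values closer to 0 than this carry no direction. With it 44 genes were higher and 114 lower in all 3 samples, so the higher part of the calls was 27.8%, against 0% on the CPM scale. It was 32.0% against 0.312% in BKO and 49.4% against 15.3% in both WT runs. Of the 44 genes 23 encode ribosomal proteins, and the others include Tesc, C1qbp, Npm1, Mif, Hspe1, Phb2, Nme1, Nme2 and Dctpp1.

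**Figure D2:**
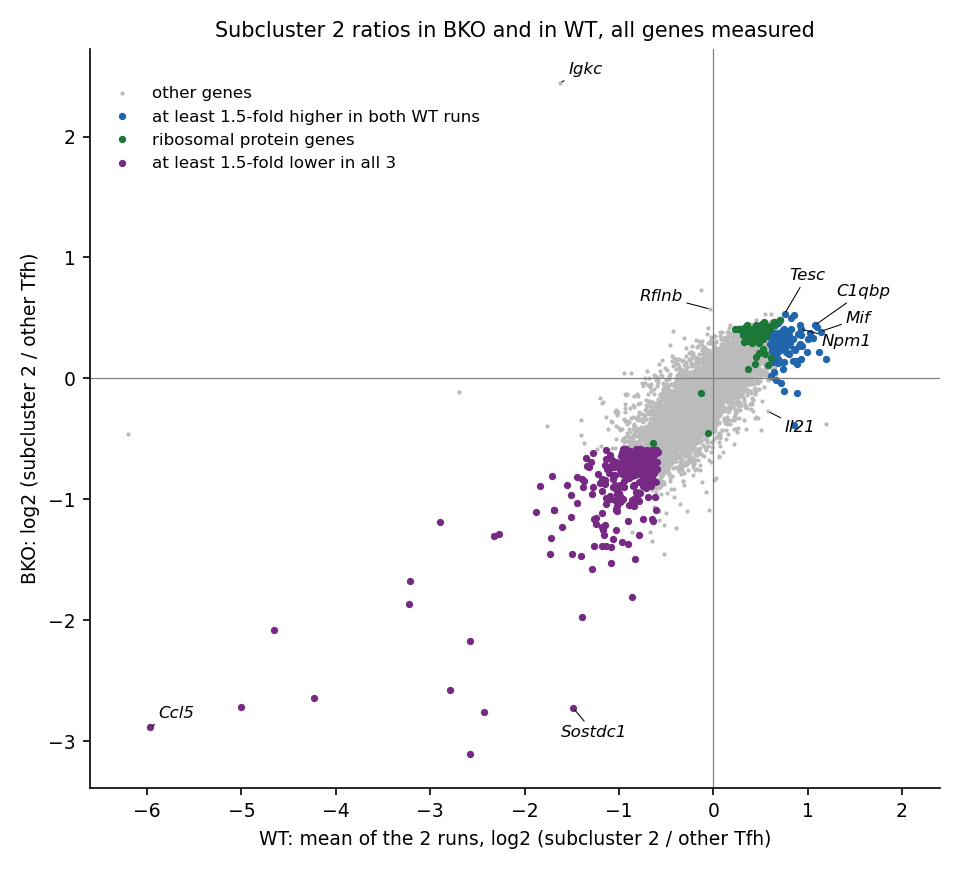
Log2 ratio of subcluster 2 to other Tfh cells for the 6434 genes measured, with the mean of both WT runs on the horizontal axis and BKO on the vertical axis, and lines at 0. The 106 genes at least 1.5-fold higher in both WT runs (blue) have a median of 0.29 in BKO, the ribosomal protein genes (green) one of 0.39, and the 315 genes lower in all 3 samples (purple) fall below 0 on both axes.

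Genes of ribosome assembly were frequent in the WT signature. Of 32 genes in the list of nucleolus and ribosome assembly 25 were measured, and 13 of them were higher in both WT runs and 0 in BKO, with medians of 0.17, 0.63 and 0.63 in BKO, WT run 1 and WT run 2. Of all genes 1.65% were higher in both WT runs and 0.0311% in BKO. With only 2 of 6434 genes higher in BKO, a count of 0 there is not particular to this list or to those below. Nhp2, a part of the particles that modify ribosomal RNA, stood at 54.9 against 45.4 CPM in BKO, 94.0 against 53.5 CPM in WT run 1 and 93.7 against 44.0 CPM in WT run 2. Nop56, of the sister particles that methylate ribosomal RNA, stood at 48.1 against 38.2 CPM in BKO, 66.3 against 41.0 CPM in WT run 1 and 61.5 against 38.7 CPM in WT run 2. Both were somewhat higher in BKO members than in other BKO Tfh cells and more so in WT. Mrto4, a factor of large subunit assembly, stood at 27.9 against 22.0 CPM in BKO, 37.7 against 19.8 CPM in WT run 1 and 43.5 against 18.5 CPM in WT run 2. Ncl, which encodes the nucleolar protein nucleolin, stood at 416 against 395 CPM in BKO (log2 ratio 0.07), 581 against 391 CPM in WT run 1 (0.57) and 609 against 379 CPM in WT run 2 (0.68), close to even in BKO and past the 1.5-fold rule in WT run 2 only.

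Genes for mitochondrial import and folding and for nucleotide synthesis followed the same order over all members. Medians without the members in all-cell cluster 16 are given further below. Of 16 measured genes for mitochondrial import and matrix chaperones 5 were higher in both WT runs, against 1.65% of all genes, and 0 in BKO, with medians of 0.27, 0.52 and 0.54. Hspd1, the matrix chaperonin, stood at 82.8 against 74.0 CPM in BKO, 146 against 73.8 CPM in WT run 1 and 135 against 73.2 CPM in WT run 2, and Hspe1, its lid, at 295 against 218 CPM in BKO, 369 against 189 CPM in WT run 1 and 351 against 190.3 CPM in WT run 2. Of 11 measured nucleotide synthesis genes 4 were higher in both WT runs, against the same 1.65%, and 0 in BKO (medians 0.17, 0.45 and 0.45). They were Nme1 and Nme2, which supply nucleoside triphosphates, Dctpp1, which clears modified nucleotides, and Impdh2, which commits purines to guanine nucleotides. Impdh2 stood at 42.5 against 32.6 CPM in BKO, 61.2 against 28.4 CPM in WT run 1 and 55.3 against 28.4 CPM in WT run 2.

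The medians of 5 further growth lists were also above those of all genes, and that of 5 amino acid transport genes was not, at -0.30, -0.14 and -0.18. The counts of these lists stand beside 1.65% of all genes higher and 9.12% lower in both WT runs. The medians of 16 cytosolic chaperone genes were 0.19, 0.45 and 0.47, with Cct2 and Hsp90ab1 higher in both WT runs. Those of 15 translation factor genes were 0.14, 0.43 and 0.36, with Eif5a and Eef1g higher there. Eif5a, which relieves stalled ribosomes, stood at 323 against 250.03 CPM in BKO, 427 against 229 CPM in WT run 1 and 392 against 211 CPM in WT run 2. The 42 oxidative phosphorylation genes had medians of 0.24, 0.39 and 0.36, with 42 ratios above 0 in BKO and 41 and 41 in the WT runs, and 3 genes past the rule in both WT runs. The 13 glycolysis genes had medians of 0.15, 0.37 and 0.37, with Gapdh and Tpi1 higher and Hk1 and Slc2a3 lower in both WT runs. The 16 proteasome genes had medians of 0.22, 0.29 and 0.31, with 0 past the rule. Myc itself was scarce in the members as a whole, with 5.57 against 5.33 CPM in BKO, 6.71 against 6.21 CPM in WT run 1 and 7.34 against 5.76 CPM in WT run 2.

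**Figure D3:**
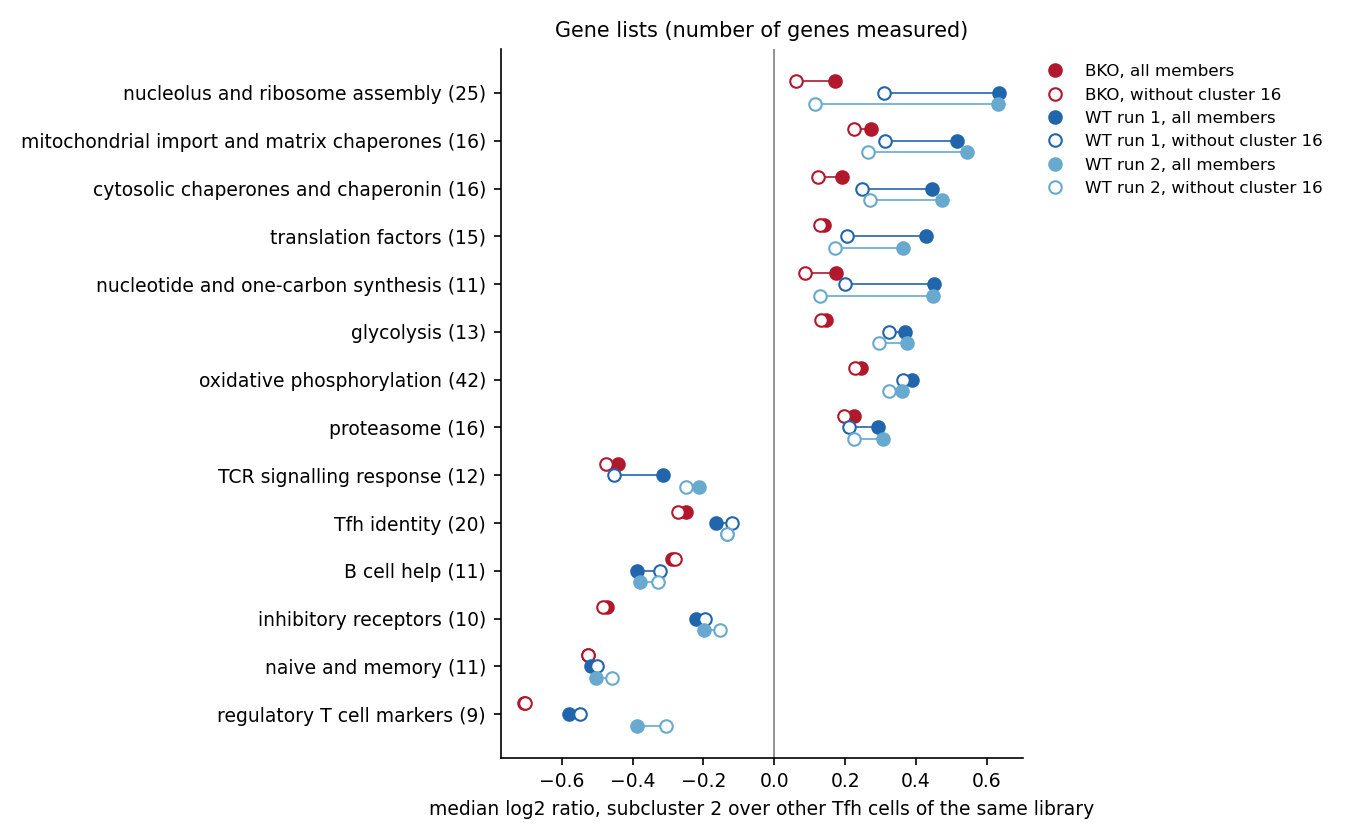
Median log2 ratio of subcluster 2 to other Tfh cells (horizontal axis) for 14 gene lists (vertical axis, with the number of genes measured), in BKO, WT run 1 and WT run 2, for all members (filled) and without the members in all-cell cluster 16 (open). Leaving out cluster 16 brings the nucleolus list to 0.06, 0.31 and 0.11, and the T cell receptor response list to -0.48, -0.45 and -0.25.

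Promoters are shown for genes of this signature with and without the E-box CACGTG, the element that Myc and its partner Max bind. The bases are the 250 before the annotated start, from RefSeq (GRCm38.p6), 5′ to 3′, in lower case with the E-box in capitals. Mif (chr10:75860278-75860527, minus strand) and C1qbp (chr11:70983027-70983276, minus strand) hold none in this window. Galk1 (chr11:116012720-116012969, minus strand), which encodes galactokinase, holds 1 that begins 17 bases before the start. Eif5a (chr11:69921387-69921636, minus strand, at 1 of its several start sites) holds 1 that begins 74 bases before it.
Mif: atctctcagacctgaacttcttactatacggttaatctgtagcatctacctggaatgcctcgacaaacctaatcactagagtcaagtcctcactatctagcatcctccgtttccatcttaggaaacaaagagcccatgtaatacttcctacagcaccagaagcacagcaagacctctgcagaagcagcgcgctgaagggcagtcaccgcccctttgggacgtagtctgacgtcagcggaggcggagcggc
C1qbp: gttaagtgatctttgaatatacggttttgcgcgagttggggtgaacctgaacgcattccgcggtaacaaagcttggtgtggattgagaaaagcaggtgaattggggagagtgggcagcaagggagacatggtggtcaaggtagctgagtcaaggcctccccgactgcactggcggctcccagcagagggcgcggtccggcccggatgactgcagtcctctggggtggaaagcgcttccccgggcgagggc
Galk1: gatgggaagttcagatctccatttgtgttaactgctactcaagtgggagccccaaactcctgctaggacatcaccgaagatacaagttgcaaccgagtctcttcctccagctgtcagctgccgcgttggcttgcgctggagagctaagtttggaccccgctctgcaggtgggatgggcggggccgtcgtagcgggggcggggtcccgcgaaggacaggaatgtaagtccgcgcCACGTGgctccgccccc
Eif5a: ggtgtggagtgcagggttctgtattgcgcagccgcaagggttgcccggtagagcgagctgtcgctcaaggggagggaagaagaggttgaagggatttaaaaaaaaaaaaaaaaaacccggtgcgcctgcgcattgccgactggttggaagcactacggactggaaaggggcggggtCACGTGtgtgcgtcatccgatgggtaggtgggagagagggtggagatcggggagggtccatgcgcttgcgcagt
The element reads the same on both strands. Of the 96 named genes higher in both WT runs 83 matched the RefSeq promoter table by symbol, and 17 of them (20.5%) had the E-box within 250 bases before to 50 bases after a start site. It was found for 12.3% of 4953 matched genes among all named genes measured, for 9.13% of 416 matched genes lower in both WT runs, and for 8.09% of all 27025 genes of the table. A gene with several start sites counts once if any window holds it and so has more chances. Galk1 stood at 20.9 against 15.4 CPM in BKO, 31.0 against 14.3 CPM in WT run 1 and 27.7 against 12.6 CPM in WT run 2 and met the rule in both WT runs and not in BKO.

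The nucleolar signature was strongest in few members. The authors also clustered all cells together, and cluster 16 of that clustering held 30 of 2180 BKO members (1.38%, 0.930 to 1.96), 19 of 257 in WT run 1 (7.39%, 4.51 to 11.3) and 21 of 269 in WT run 2 (7.81%, 4.90 to 11.7). The nucleolus list took 0.950% of the UMIs of these members in BKO, 0.878% in WT run 1 and 0.865% in WT run 2. Members outside cluster 16 had 0.231%, 0.247% and 0.227%, and other Tfh cells 0.213%, 0.203% and 0.197%. All BKO members together had 0.249%, close to subclusters 3 and 8 of BKO with 0.243% and 0.260%. On this measure the members in cluster 16 were alike in the 3 samples, and the members outside it were nearer to other Tfh cells than to them.

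Mif stood at 1742, 1434 and 1341 CPM in the cluster 16 members of BKO, WT run 1 and WT run 2, against 331, 371 and 303 CPM in members outside it. Npm1 stood at 2825, 2457 and 2323 against 642, 743 and 659 CPM, and C1qbp at 348, 327 and 261 against 51.0, 55.3 and 50.4 CPM. All 3 markers were thus several times as high inside cluster 16 as outside it. Srm, which makes spermidine, stood at 192, 97.4 and 90.9 against 9.21, 13.4 and 13.9 CPM, and Mettl1, a transfer RNA methyltransferase, at 142, 153 and 114 against 8.38, 14.3 and 11.9 CPM. Myc stood at 50.2, 13.9 and 30.3 against 4.42, 5.72 and 3.32 CPM. The cluster 16 members held 338758, 143671 and 263931 UMIs of all genes, so their Myc levels rest on few UMIs, fewest in WT run 1. Rflnb ran the other way, at 14.8, 48.7 and 34.1 CPM in cluster 16 members against 235, 149.8 and 161 CPM outside, so it was high in other members than those highest in Mif.

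As a share of all Tfh cells, members in cluster 16 were 0.470% in BKO (0.317 to 0.670), 0.510% in WT run 1 (0.307 to 0.795) and 0.573% in WT run 2 (0.355 to 0.874), with intervals that overlap. Members outside cluster 16 were 33.7% of Tfh cells in BKO (32.5 to 34.8), 6.39% in WT run 1 (5.62 to 7.22) and 6.76% in WT run 2 (5.97 to 7.62), so the higher share of subcluster 2 in BKO lay outside cluster 16. Without cluster 16, a comparison added after seeing the data, 31 genes were higher in both WT runs in place of 106. The log2 ratio was then 0.26 in BKO against 0.66 in WT for Mif, 0.27 against 0.46 for C1qbp and 0.31 against 0.57 for Npm1. In BKO, WT run 1 and WT run 2 the mitochondrial import medians were then 0.23, 0.31 and 0.27. Those of nucleotide synthesis were 0.09, 0.20 and 0.13, of cytosolic chaperones 0.12, 0.25 and 0.27, and of translation factors 0.13, 0.20 and 0.17. The oxidative phosphorylation medians moved less, to 0.23, 0.36 and 0.32. Cluster 16 was not particular to subcluster 2, since 11 other Tfh cells in BKO and 22 in each WT run lay in it, with nucleolus shares of 0.804%, 0.886% and 0.778%. Its members were also deep, with medians of 10192, 6364 and 10354 UMIs, and the part of depth was not tested. By a limit on the share per cell, 58 of 2180 BKO members (2.66%), 25 of 257 (9.73%) and 26 of 269 (9.67%) had over 0.5% of their UMIs in the list, against 1.85%, 1.84% and 1.68% of other Tfh cells. Of these members 24, 16 and 15 lay in cluster 16, so by this limit most of the high BKO members lay outside it. Of the members 79, 10 and 14 lay near this limit, between 0.4% and 0.6%.

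**Figure D4:**
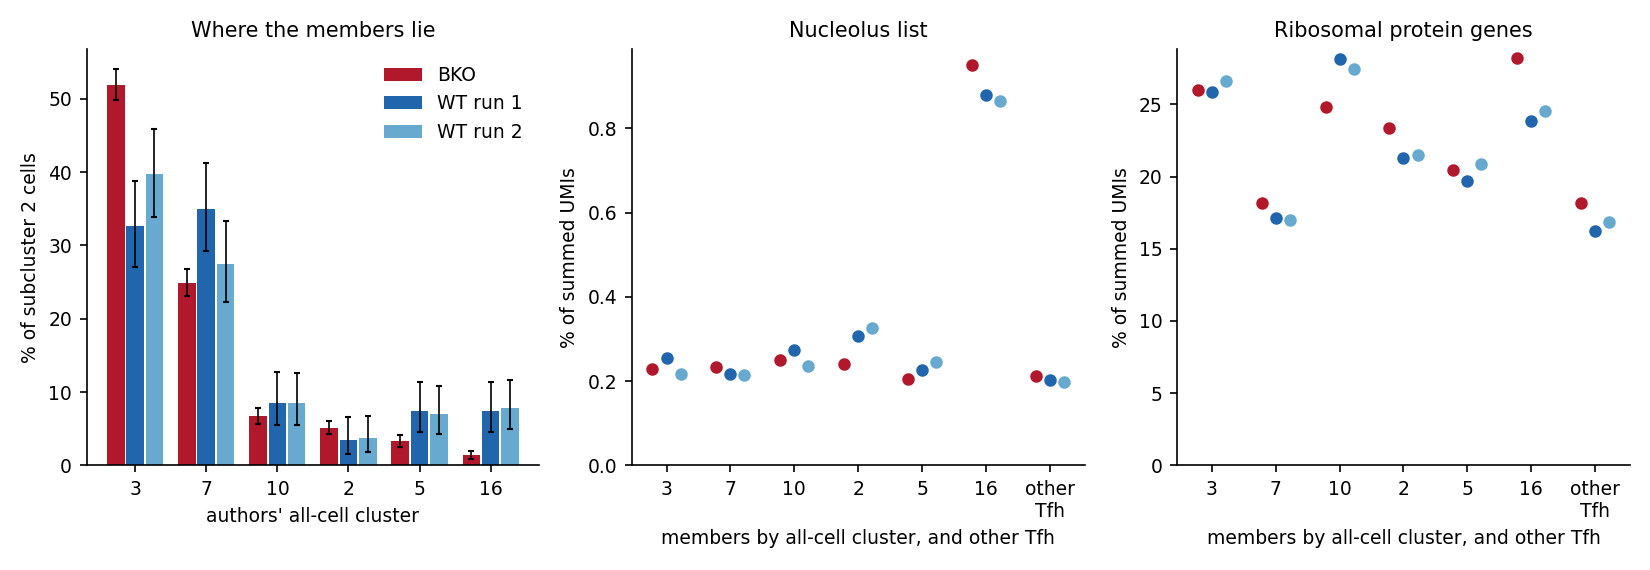
Left, share of subcluster 2 cells (%) in 6 of the authors' all-cell clusters for BKO, WT run 1 and WT run 2, with exact 95% intervals. Middle and right, share of summed UMIs (%) from the nucleolus list and from ribosomal protein genes in members by all-cell cluster and in other Tfh cells, where the nucleolus share is highest in cluster 16 (0.950%, 0.878% and 0.865%) and the ribosomal share of members is lowest in cluster 7.

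Most members fell into all-cell clusters 3 and 7. Cluster 3 held 1132 BKO members (51.9%, 49.8 to 54.0), 84 in WT run 1 (32.7%, 27.0 to 38.8) and 107 in WT run 2 (39.8%, 33.9 to 45.9), and nearly every Tfh cell of cluster 3 was a member (97.4%, 94.4% and 90.7%). As a share of all Tfh cells these members were 17.7% in BKO, 2.25% in WT run 1 and 2.92% in WT run 2. Their ribosomal share was 26.0%, 25.9% and 26.6%, above that of the members as a whole. Rflnb stood at 286, 210.3 and 216 CPM in the members of cluster 3 and Tesc at 196, 218 and 193 CPM, so within cluster 3 Rflnb was above the other Tfh cells in both genotypes. Cluster 7 held 542 BKO members (24.9%), 90 in WT run 1 (35.0%) and 74 in WT run 2 (27.5%), with a ribosomal share of 18.2%, 17.1% and 17.0%, close to that of other Tfh cells. Il21 stood at 105, 89.96 and 81.0 CPM in the members of cluster 7 against 39.8, 18.2 and 27.6 CPM in those of cluster 3. Subcluster 2, drawn at resolution 0.3, thus joins cells that the clustering of all cells, drawn at the finer resolution 1, kept apart. Whether it does so more than the other subclusters was not compared.

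Among the molecules through which Tfh cells help B cells, Il21 differed in direction between BKO and WT, while Il4 and Cd40lg did not. Il21, which drives germinal centre B cells and plasma cells, stood at 62.6 against 75.7 CPM in BKO (log2 ratio -0.27), 62.9 against 42.5 CPM in WT run 1 (0.56) and 72.3 against 47.4 CPM in WT run 2 (0.60), with intervals of -0.39 to -0.16, 0.20 to 0.91 and 0.33 to 0.87. The level in members was alike in the 3 samples, and the other Tfh cells held more Il21 in BKO than in WT. Against subcluster 0 alone the Il21 ratio was above 0 in both genotypes, 0.33 in BKO and 1.22 as the mean of the WT runs. Against other Tfh cells without subclusters 1, 5, 6, 7 and 8 it was -0.57 in BKO and -0.02 in WT, so the direction of Il21 depends on the comparator. Il4, which directs class switching, stood at 63.8 against 85.9 CPM in BKO, 54.5 against 93.1 CPM in WT run 1 and 61.0 against 100.3 CPM in WT run 2, below the other Tfh cells in all 3 samples. Cd40lg, the CD40 ligand, stood at 213 against 234 CPM in BKO, 160.2 against 187 CPM in WT run 1 and 177 against 197 CPM in WT run 2. Of 11 measured B cell help genes 0 passed the rule in all 3 samples, with medians of -0.29, -0.39 and -0.38.

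Genes of Tfh identity were at or somewhat below the level of other Tfh cells. Of 20 such genes Tox and Btla were lower in all 3 samples and 0 higher, with medians of -0.25, -0.16 and -0.13, near the median of all genes. Bcl6, the repressor that defines Tfh cells, stood at 143 against 200.1 CPM in BKO, 143 against 169 CPM in WT run 1 and 162 against 178 CPM in WT run 2, and Cxcr5, their homing receptor, at 226 against 234 CPM in BKO, 189.6 against 198 CPM in WT run 1 and 180.1 against 198 CPM in WT run 2. Neither passed the rule in any sample. Tox, a nuclear factor of chronically stimulated T cells, stood at 1399 against 2698 CPM in BKO, 1826 against 3092 CPM in WT run 1 and 1762 against 3053 CPM in WT run 2, and at 2536, 2598 and 2529 CPM in subcluster 0. Icos, the costimulatory receptor that sustains Tfh cells, stood at 209.8 against 329.9 CPM in BKO (log2 ratio -0.65), 193 against 269 CPM in WT run 1 (-0.48) and 201 against 264 CPM in WT run 2 (-0.39), past the rule in BKO only. Whether the Icos ratios differ between genotypes could not be tested.

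Of 12 measured genes induced by T cell receptor signals, Cd69, Egr1, Egr2 and Nfkbid were lower in all 3 samples and 0 higher, against 4.9% of all genes lower. The medians were -0.44, -0.31 and -0.21, against -0.16, -0.14 and -0.13 over all genes, and 0, 1 and 3 of the 12 ratios were above 0. Cd69, which retains activated cells in lymphoid tissue, stood at 31.3 against 74.0 CPM in BKO, 24.3 against 55.2 CPM in WT run 1 and 23.1 against 53.8 CPM in WT run 2. Egr2, an early growth response factor, stood at 10.3 against 37.3 CPM in BKO, 14.3 against 24.97 CPM in WT run 1 and 12.4 against 24.3 CPM in WT run 2. The comparator matters here, since Egr2 stood at 96.1, 86.6 and 82.7 CPM in subcluster 3 and at 4.14, 3.85 and 5.68 CPM in subcluster 0, with the members between them. Sostdc1, a secreted antagonist of BMP and Wnt signals, stood at 57.6 against 384 CPM in BKO, 81.4 against 247 CPM in WT run 1 and 86.9 against 226 CPM in WT run 2, with 1070.3, 1095 and 995 CPM in subcluster 3 and 72.8, 89.9 and 83.6 CPM in subcluster 0. The members were thus far from subcluster 3 and near subcluster 0 for Sostdc1.

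Other lower genes were also high in single subclusters. Ccl5, a chemokine of cytotoxic and memory T cells, stood at 5.64 against 44.7 CPM in BKO, 25.2 against 2355 CPM in WT run 1 and 52.5 against 2252 CPM in WT run 2. Nkg7, of cytotoxic granules, stood at 10.6 against 35.1 CPM in BKO, 25.2 against 264 CPM in WT run 1 and 28.8 against 242 CPM in WT run 2, and at 1049.7, 1982 and 1772 CPM in subcluster 5, which holds 11 BKO cells and 359 and 363 cells of the WT runs. Klf2, which keeps T cells circulating, stood at 42.5 against 119 CPM in BKO, 39.4 against 104 CPM in WT run 1 and 35.6 against 95.7 CPM in WT run 2. It was at 643, 515 and 466 CPM in subcluster 4 and at 19.9, 14.0 and 16.6 CPM in subcluster 0. Bach2, a repressor that restrains effector differentiation, stood at 43.5 against 97.3 CPM in BKO, 56.2 against 127 CPM in WT run 1 and 49.7 against 125 CPM in WT run 2, and at 67.03, 78.9 and 74.8 CPM in subcluster 0. Bach2 and Tox were thus below both comparators, whereas Klf2 and Egr2 were below the mixture and above subcluster 0.

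Among the other lists, 2 of 10 inhibitory receptor genes (Btla and Entpd1), 2 of 11 naive and memory genes (Klf2 and Bach2), 4 of 12 cell cycle genes and 1 of 18 interferon response genes (Ifit1) were lower in all 3 samples, and 0 of them higher, where 4.9% of all genes were lower. The interferon count is near that background. The lower cell cycle genes were Ccnd3, Mki67, Stmn1 and Top2a. Others of this list went the other way, with 5, 7 and 8 of the 12 ratios above 0 in BKO, WT run 1 and WT run 2. The medians of the cell cycle list were -0.10, 0.07 and 0.17. Mki67, a marker of dividing cells, stood at 12.5 against 22.2 CPM in BKO, 15.1 against 53.4 CPM in WT run 1 and 14.1 against 44.5 CPM in WT run 2. The other Tfh cells include subcluster 8, whose given label is cycling cells, with 46, 64 and 53 cells in BKO, WT run 1 and WT run 2. The part of subcluster 8 in these ratios was not tested. Of 9 measured regulatory T cell genes Ikzf4, Entpd1 and Tnfrsf1b were lower in all 3 samples, with medians of -0.71, -0.58 and -0.39. Foxp3, their defining factor, stood at 1.26 against 1.36 CPM in BKO, 0 against 0.855 CPM in WT run 1 and 13.0 against 16.8 CPM in WT run 2, and the WT runs of the same cells differed in it.

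Markers of other cell types were low in the members as a whole, and the sum of B cell markers was higher in those of all-cell cluster 10. All 12 T cell markers exceeded 20 CPM, with medians of 0.07, 0.02 and 0.04, and summed to 11301 against 10367 CPM in BKO, 10247 against 9729 CPM in WT run 1 and 9923 against 9499 CPM in WT run 2. The 12 B cell markers summed to 35.6 against 45.4 CPM in BKO, 29.4 against 52.6 CPM in WT run 1 and 38.4 against 50.8 CPM in WT run 2, with 1, 5 and 5 of them at 0 in members. The 11 myeloid markers summed to 103 against 106 CPM in BKO, 116 against 88.6 CPM in WT run 1 and 99.9 against 82.3 CPM in WT run 2, with 6, 8 and 5 at 0 in members. Nearly all of the myeloid sum was Cst3, a widely expressed protease inhibitor, at 101, 114 and 93.1 CPM in members. The 7 erythroid and platelet markers summed to 6.16 against 10.1 CPM in BKO, 0.839 against 4.22 CPM in WT run 1 and 2.26 against 4.80 CPM in WT run 2, with 2, 6 and 5 at 0 in members. The 13 CD8 T and NK cell markers summed to 60.1 against 155 CPM in BKO, 102 against 2849 CPM in WT run 1 and 136 against 2722 CPM in WT run 2, with 2, 4 and 4 at 0 in members, and 3 of the 4 measured were lower in all 3 samples. The 7 plasma cell markers summed to 96.5 against 86.5 CPM in BKO, 48.7 against 82.1 CPM in WT run 1 and 57.6 against 84.7 CPM in WT run 2, with 0, 3 and 2 at 0 in members. Cluster 10 held 146 BKO members, 22 in WT run 1 and 23 in WT run 2, in which the B cell markers summed to 147, 105 and 91.4 CPM and the plasma cell markers to 525, 41.9 and 63.3 CPM. Only 1 of the 12 B cell markers exceeded 20 CPM in each sample there, and 4, 10 and 9 were at 0. Most of the B cell sum was Cd74, with 120, 9 and 11 UMIs in these members, so the WT sums rest on few UMIs. The T cell markers summed there to 11519.5, 11803 and 11539.7 CPM. Without cluster 10, a comparison added after seeing the data, 285 genes were lower in all 3 samples in place of 315, 119 were higher in both WT runs in place of 106, and the Mif log2 ratio was 0.32 in BKO against 1.17 in WT.

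The 2 genes higher by the rule in BKO were Igkc and the unannotated Gm20069, both named after their values were seen. Igkc, the immunoglobulin kappa constant gene, stood at 247 against 45.0 CPM in BKO, 48.7 against 175 CPM in WT run 1 and 61.5 against 165 CPM in WT run 2. Of 3325 Igkc UMIs in BKO members 2974 lay in cluster 10 and 2849 came from 2 cells, and without those cells the level was 35.4 CPM, below the other BKO Tfh cells. Jchain, which joins secreted antibody and marks plasma cells, had 421 of its 435 UMIs in BKO members in 2 cells. It stood at 32.3 against 0.761 CPM in BKO, and at 1.04 CPM without those cells. In WT each run had 1 Jchain UMI in its members. The Igkc result in BKO rests on 2 of 2180 members.

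Between genotypes, BKO and WT members were compared over the 6226 genes whose mean reached 20 CPM. By the rule of size, taken against WT run 1 and WT run 2 alike, 21 genes were higher in BKO members (0.337%) and 110 lower (1.77%). Within batch 1, that is against WT run 1 alone, 81 were higher and 231 lower, and against WT run 2 alone 50 and 182. The median gene stood at -0.10 and -0.08, and TMM scaling moved these ratios up by 0.15, which turned the balance to 89 higher and 35 lower, so the higher part of the calls was 71.8%, against 16.03% on the CPM scale. The genotypes also differ in the software named in the file headers, Cell Ranger 4 for BKO and cellranger-7.0.1 for WT. No source used here says whether reads in introns were counted, and genotype and counting cannot be told apart.

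Ly6a, an interferon-induced surface antigen, stood at 419 CPM in BKO members, 254 CPM in WT run 1 and 242 CPM in WT run 2. It was also higher outside the subcluster in BKO, with 333, 161 and 154 CPM in other Tfh cells. Rflnb stood at 229 CPM in BKO members, 138 CPM in WT run 1 and 142 CPM in WT run 2 and at 154, 142 and 144 CPM in other Tfh cells, so its difference between genotypes was larger among the members. H2-Q2, a class I gene of the Q region, stood at 94.5 CPM in BKO members, 54.5 CPM in WT run 1 and 55.3 CPM in WT run 2. It was likewise higher outside the subcluster in BKO, with 65.0, 36.2 and 38.8 CPM in other Tfh cells. H2-Q2 has close copies among which reads could be split. Tubb2a, a beta tubulin, stood at 60.7 CPM in BKO members, 39.4 CPM in WT run 1 and 37.8 CPM in WT run 2, and Ddah1, which degrades methylated arginine, at 28.3 CPM in BKO members, 14.3 CPM in WT run 1 and 18.1 CPM in WT run 2.

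Among the lower genes, Mettl1 stood at 11.7 CPM in BKO members, 31.0 CPM in WT run 1 and 27.1 CPM in WT run 2, and Hspd1, Nhp2 and Mybbp1a of the growth lists were lower too. Mybbp1a, a nucleolar binding partner of Myb, stood at 32.6 CPM in BKO members, 54.5 CPM in WT run 1 and 62.1 CPM in WT run 2. The nucleolus list as a whole had medians of -0.40 against WT run 1 and -0.38 against WT run 2, with 2 of its genes lower and 0 higher, and a smaller part of the BKO members lay in cluster 16, as given above. Runx3, a factor of cytotoxic T cells, stood at 14.3 CPM in BKO members, 29.4 CPM in WT run 1 and 26.5 CPM in WT run 2, and Rrm1, the large subunit of ribonucleotide reductase, at 14.0 CPM in BKO members, 26.0 CPM in WT run 1 and 27.1 CPM in WT run 2. Maml3, a coactivator of Notch, stood at 15.6 CPM in BKO members, 39.4 CPM in WT run 1 and 31.0 CPM in WT run 2. Rad51b, of homologous recombination, stood at 14.0 CPM in BKO members, 29.4 CPM in WT run 1 and 26.0 CPM in WT run 2, and Mgmt, which repairs alkylated guanine, at 17.7 CPM in BKO members, 34.4 CPM in WT run 1 and 34.4 CPM in WT run 2. In these genes BKO members lay below both WT runs, which hold the same cells and so do not show the spread between WT mice.

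Dividing each member ratio of BKO by that of WT takes off what moves a gene equally in all Tfh cells of a library. On this measure 41 of 6434 genes were at least 1.5-fold larger in BKO against both WT runs (0.637%) and 50 smaller (0.777%). Among the larger ones were Ccl5, Ccl4, Nkg7 and Gzmk, genes of cytotoxic or memory T cells that were high in the other Tfh cells of WT, and the marker Rflnb. In the members themselves Ccl5 was lower in BKO, at 5.64 CPM against 25.2 and 52.5 CPM in WT runs 1 and 2. Nkg7, given above, was lower there too, while Gzmk was higher. The Ccl4 levels rest on 3 UMIs in BKO members and on 2 and 1 in the members of WT runs 1 and 2. Gzmk, a granzyme, stood at 19.3 against 20.9 CPM in BKO, 10.1 against 76.4 CPM in WT run 1 and 12.4 against 74.0 CPM in WT run 2. Among the smaller ones were Sostdc1, Il21 and Egr2, given above, and Rrp15, a factor of large ribosomal subunit assembly, at 23.4 against 20.8 CPM in BKO, 41.9 against 17.0 CPM in WT run 1 and 36.1 against 16.6 CPM in WT run 2. Tagap, a GTPase-activating protein of activated T cells, stood at 17.9 against 49.7 CPM in BKO, 23.5 against 35.2 CPM in WT run 1 and 26.0 against 35.9 CPM in WT run 2.

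The genes whose level followed Mif most closely were taken by Pearson's r over the 6 BKO subclusters of at least 100 cells, among 3243 genes of at least 50 CPM. They were Ptma (r = 0.98), Lman2 (0.98), Ndufb4 (0.97), Commd3 (0.97), Ptprcap (0.96), Fth1 (0.96), Atp6v0c (0.96) and Pkm (0.95). The 6 points share 1 library and its depth, and the r is a description. Ptma, which encodes prothymosin alpha, stood at 1236 against 1123 CPM in BKO (log2 ratio 0.14), 1464 against 1036 CPM in WT run 1 (0.50) and 1428 against 1006 CPM in WT run 2 (0.50), a larger ratio in WT as for Mif. Pkm and Ndufb4 also had larger ratios in both WT runs, but Fth1 (0.30 in BKO, against 0.22 and 0.22 in WT runs 1 and 2), Commd3 (0.23, against 0.08 and 0.17) and Atp6v0c (0.19, against 0.13 and 0.15) had smaller ones. The intervals of BKO and WT overlapped for Fth1, Commd3 and Atp6v0c, so their order is within counting error. For Atp6v0c they were 0.12 to 0.27 in BKO, against -0.10 to 0.35 and -0.04 to 0.34 in WT runs 1 and 2.

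A like group stood among Tfr cells, which the authors clustered apart. Of the 5 Tfr subclusters of at least 100 cells, their subcluster 2 had the highest share of ribosomal protein UMIs, 24.9% in BKO, 22.3% in WT run 1 and 23.3% in WT run 2. It also had the highest Mif, at 504, 431 and 413 CPM. C1qbp stood there at 64.7, 84.5 and 72.1 CPM and Npm1 at 792, 950.2 and 881 CPM, lower in BKO than in either WT run for C1qbp and Npm1 but not for Mif. Rflnb was low in those cells, at 35.4, 39.2 and 33.8 CPM.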

How the data were processed

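Single-cell UMI counts per gene and barcode were deposited by the authors as raw count matrices for BKO (32285 genes, 1275404 barcodes, 85225125 UMIs, not filtered for cells) and for WT runs 1 and 2 (5554 and 5721 barcodes, 32518538 and 54059000 UMIs). The submitters' processing notes name Cell Ranger and mm10. The deposited tables of cells give each cell's subcluster (resolution 0.3) and all-cell cluster (resolution 1), and the mitochondrial percent of UMIs that the authors' table gives for each cell stayed below 10. No source used here says whether doublets were removed, and no caller was run.

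UMIs were summed over the members and over the other Tfh cells of each library and scaled to CPM (Python 3.11.15, numpy 2.4.6, scipy 1.17.1, pandas 2.3.3). Genes whose mean reached 20 CPM were described by a rule of size of 1.5-fold, with 0.5 CPM added before log2. TMM factors came from edgeR 4.0.16 in R 4.3.3, which was used for scaling alone. No p-value is given, because the WT samples are runs of the same cells and each genotype has 1 library. Counts of UMIs have exact Poisson intervals and shares exact Clopper-Pearson intervals at 95%. For shares of cells with a UMI, cells were thinned to 2500 UMIs. Gene coordinates are those of GENCODE on GRCm38, where 99.8% of features were found. Comparisons were members against other Tfh cells within a library, BKO against both WT runs within subcluster 2, and the ratio of these ratios.

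The members and the 27 gene lists were chosen with earlier results of these data known. Named genes are the given markers, Tfh genes of interest, the genes ranked first by the rule in each comparison, list members past the rule or highest in CPM, and genes that follow Mif. Of the genes higher in both WT runs several (Nhp2, Nop56, Hspd1, Impdh2, Galk1), and Mettl1 in cluster 16, Igkc, Jchain and Malat1 were named after their values were seen. Tfr cells were used for comparison only.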

Additional observations from a re-analysis of the deposited data

Results flagged for a closer look

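The following values had opposite signs in BKO and in both WT runs, and the difference was not tested, because each genotype has 1 library. The log2 ratio of subcluster 2 to other Tfh cells for Rflnb was 0.57 in BKO, against -0.04 in WT run 1 and -0.02 in WT run 2, and TMM scaling brings the WT value above 0. For Il21 it was -0.27 in BKO, against 0.56 in WT run 1 and 0.60 in WT run 2, and its signs were opposite with TMM scaling too (-0.08 in BKO, against 0.71 as the mean of the WT runs). They were not opposite against other Tfh cells without subclusters 1, 5, 6, 7 and 8 (-0.57 in BKO, against -0.02 in WT) or against subcluster 0 (0.33 in BKO, against 1.22 in WT). The median over 4 polyamine synthesis genes was -0.083 in BKO, against 0.27 and 0.28 in WT runs 1 and 2. The median over 12 cell cycle genes was -0.10 in BKO, against 0.07 and 0.17 in WT runs 1 and 2. Both medians of BKO lie within the 0.20 by which TMM scaling moves it, so their sign depends on the scaling.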

How the results depend on the processing

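Of the counts and shares that answer a comparison, 61 values under another setting moved beyond 1.5 times or beyond their interval and 52 did not; of the marker values 44 moved, 1 reversed and 75 did neither. The cause was not tested for any of them. Counts are given in the order higher in all 3 samples (0), lower in all 3 (315), higher in BKO (2), higher in both WT runs (106), BKO over WT higher (21) and lower (110), and larger (41) and smaller (50) ratio in BKO than in WT, and a count within 1.5 times is left out. With TMM scaling they were 44, 114, 90, 305, 89, 35, 68 and 32. Under another CPM minimum the counts are over other numbers of genes than 6434 (6226 for BKO over WT), so they do not compare as shares. With no CPM minimum, over 21323 genes (17501 for BKO over WT), they were 14, 1036, 156, 638, 1285, 1264, 1612 and 1005. A minimum of 50 CPM left 3449 genes (3267 for BKO over WT). With it they were 187 lower in all 3, 1 higher in BKO, 56 higher in both WT runs, 12 and 25 between genotypes, and 7 and 15 for the ratios. With a 2-fold rule they were 36, 1, 4, 2, 3, 12 and 2 in the same order. With cells thinned to 2500 UMIs 1 gene was higher in all 3, 4 in BKO, 38 in BKO over WT, and 81 and 84 had a larger and a smaller ratio. With the mean of per-cell CPM 1 was higher in all 3, 4 in BKO, 65 in both WT runs and 36 in BKO over WT. Without subclusters 1, 5, 6, 7 and 8 among the other Tfh cells 1 was higher in all 3 and 5 in BKO. With subcluster 0 as the comparator 139 were higher and 757 lower in all 3, 212 were higher in BKO and 334 in both WT runs, 115 had a smaller ratio, and the WT ratio of Tesc reversed to -0.056. With WT cells placed alike in both runs 84 had a smaller ratio. Leaving out WT run 1 or WT run 2 gave 161 to 170 genes higher in WT, 56 to 82 higher and 168 to 221 lower in BKO over WT, and 63 to 110 larger and 93 to 114 smaller ratios. Chosen after seeing the data, leaving out all-cell cluster 16 gave 31 genes higher in both WT runs, and weighting the other Tfh cells to the members' UMIs gave 1 gene higher in all 3. The WT share of 7.11%, the mean of both runs, was 8.33% without subclusters 5 and 6 in the denominator and 6.27% among cells of at least 2500 UMIs, while the BKO share of 34.1% was 34.7% and 34.1%. No paired analysis was possible because each genotype has 1 library and the WT samples are runs of the same cells. Counts of few UMIs limit the WT members most, with 257 and 269 cells.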
